A study of Mus musculus with 30 samples.

Results

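The smooth muscle contractile genes described here are 10 genes whose protein products make up or regulate the contractile apparatus of smooth muscle: Acta2, Actg2, Myh11, Myl9, Mylk, Cnn1, Tagln, Lmod1, Smtn and Des. They were taken by symbol from a table of 55487 mouse gene identifiers, and all 10 were found and passed the filter on low counts in both cohorts. The study measured poly(A) RNA in 30 hearts, 1 library per heart, collected 8 weeks after transverse aortic constriction (TAC), in which a clip narrows the aorta and loads the left ventricle with pressure, or after sham surgery. Per the series' design text, it asked what the fatty acid import enzyme Cpt1a does in the overloaded heart. In the floxed cohort, mice with floxed Cpt1a (FF_sham and FF_TAC) and mice labelled as cardiac-specific Cpt1a knockouts (KO_sham and KO_TAC) had 4 hearts per group. In the AAV9 cohort, C57Bl/6 mice had received PBS (PBS_sham and PBS_TAC, 3 hearts each) or the vector AAV9.Cpt1a (AAV_sham and AAV_TAC, 4 hearts each). The design text calls the expression cardiac-specific and names the vector AAV9.cTNTN.Cpt1a. Overexpression of MiR370, which it also mentions, was not analysed here. The Cre driver of the knockout, the ages and the part of the heart used are not given in the sources used here, and the clip came in a pair of sizes that the labels do not assign to mice.

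As background, smooth muscle contracts when myosin light chain kinase (Mylk) phosphorylates the regulatory light chain (Myl9) of smooth muscle myosin (heavy chain, Myh11), which then pulls on filaments of smooth muscle actin (Acta2, and Actg2, the form best known from gut and bladder). Calponin (Cnn1), transgelin (Tagln), leiomodin (Lmod1) and smoothelin (Smtn) bind these filaments, and desmin (Des) forms the intermediate filaments that tie the apparatus together. In the heart, smooth muscle cells lie in the walls of coronary vessels and the great arteries, Acta2 is also made by activated fibroblasts, and Des is abundant in the heart muscle cells themselves. Transcription of many of these genes depends on serum response factor (Srf), which binds DNA sites called CArG boxes, and on its partner myocardin (Myocd).

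Promoter windows of 300 bases, from 250 bases before to 50 after each start site, were matched in the RefSeq table (GRCm38.p6) for 7 of the 10 genes: Acta2, Myl9, Mylk, Cnn1, Lmod1, Smtn and Des. A search of both strands for the CArG box found 1 in Myl9 and none in the other 6 windows. Such a box was present in 1.63% of the 32851 promoter windows in the table. When 1 of the 6 middle letters was allowed to differ, which 9.98% of all windows meet, a second box in Myl9 and a pair of boxes in Acta2 were added. The stretches that hold these boxes are shown because Acta2 and Myl9 are the matched genes with such boxes, and both were high in the sham heart PBS_sham 3. Each is written from 5′ to 3′ on the gene's own strand, with the boxes in capitals, and a match in letters is a description only.
Myl9, chr2:156775288-156775389, plus strand: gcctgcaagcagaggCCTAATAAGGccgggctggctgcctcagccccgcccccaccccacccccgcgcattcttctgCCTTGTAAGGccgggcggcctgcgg
Acta2, chr19:34255383-34255472, minus strand: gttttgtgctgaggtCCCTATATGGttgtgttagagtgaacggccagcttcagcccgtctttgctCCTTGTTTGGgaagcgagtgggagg

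In GRCm38 with the GENCODE M21 annotation, the genes lie on 7 chromosomes, and levels per kilobase use the length of all their merged exons, UTRs included. The actins are Acta2 on chromosome 19 (34241090 to 34255590, minus strand) and Actg2 on chromosome 6 (83512905 to 83536265, minus). The myosin genes are Myh11 on chromosome 16 (14194535 to 14291372, minus), Mylk on the same chromosome (34745210 to 35002420, plus) and Myl9 on chromosome 2 (156775420 to 156781658, plus). Among the filament-binding genes, Cnn1 lies on chromosome 9 (22099216 to 22109630, plus), as does Tagln (45929619 to 45936058, minus). Smtn lies on chromosome 11 (3517523 to 3540612, minus), and Lmod1 (135324807 to 135368065, plus) and Des (75360329 to 75368579, plus) lie on chromosome 1.

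Total counts ran from 14839758 to 22070373 per library. Levels below are counts-per-million (CPM) of the library total after TMM scaling within a cohort, and levels of different genes are compared only as CPM per kilobase of exon. PBS_sham 3 stood apart from the other AAV9 libraries: of 10534 genes at 5 CPM or more, it held the highest value of the cohort for 31.0% and the lowest for 44.5%. In the floxed cohort, KO_TAC 2 held the highest value for 22.5% and the lowest for 20.3% of 10512 such genes, and KO_TAC 1 for 9.31% and 14.1%. KO_TAC 1 stood apart from the other KO_TAC libraries in atrial and airway transcripts, as given with its results. Summed haemoglobin transcripts were under 100 CPM in 7 floxed libraries, all 4 of KO_TAC, FF_TAC 2 and 3, and KO_sham 2. Nothing in the labels says how the hearts of a group were separated in time or surgery, so p-values measure only the spread between these hearts. In whole tissue, fewer cells of a type and less RNA per cell cannot be told apart.

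At baseline the 10 genes covered a wide range of levels. In FF_sham, Des stood at 568 ± 71.8 CPM per kilobase (SD, n = 4), with no overlap with the next gene. Acta2 followed at 59.6 ± 23.8 and Smtn at 52.0 ± 3.99, and their libraries overlapped. Myl9 came next at 29.0 ± 10.7 CPM per kilobase, then Myh11 at 6.69 ± 3.64 and Mylk at 2.78 ± 0.53, with no overlap between neighbours in this stretch of the order. The lowest 4 genes were Lmod1 at 1.47 ± 0.64, Cnn1 at 1.20 ± 1.05, Actg2 at 0.59 ± 0.61 and Tagln at 0.44 ± 0.19 CPM per kilobase, and each overlapped its neighbour. In AAV_sham, Des was again first at 568 ± 34.7 (SD, n = 4), and Smtn at 49.1 ± 4.50 lay above Acta2 at 32.2 ± 5.0 without overlap. Des was the highest of the 10 by mean in all 8 groups.

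The count of Tagln is uncertain. It held only 9 to 226 counts per library, and 67.9% of its exon bases lie within exons of Pcsk7 and Gm48529 on the opposite strand. The libraries are strand-specific per the labels' protocols, but the strand setting of the counting is not given in the sources used here. In PBS_sham 3, which had the most Tagln counts, Pcsk7 held 932 counts against 198 to 444 in the other 29 libraries. Gm48529 held 113 against 7 to 25. Of the other genes, 16.3% of the exon bases of Smtn, 6.85% of those of Mylk and 5.86% of those of Des lie in opposite-strand exons, and none of those of the other 6. The actin genes are similar in coding sequence, and how any reads shared between Acta2, Actg2 and their paralogues were counted is not given either.

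**Figure D1:**
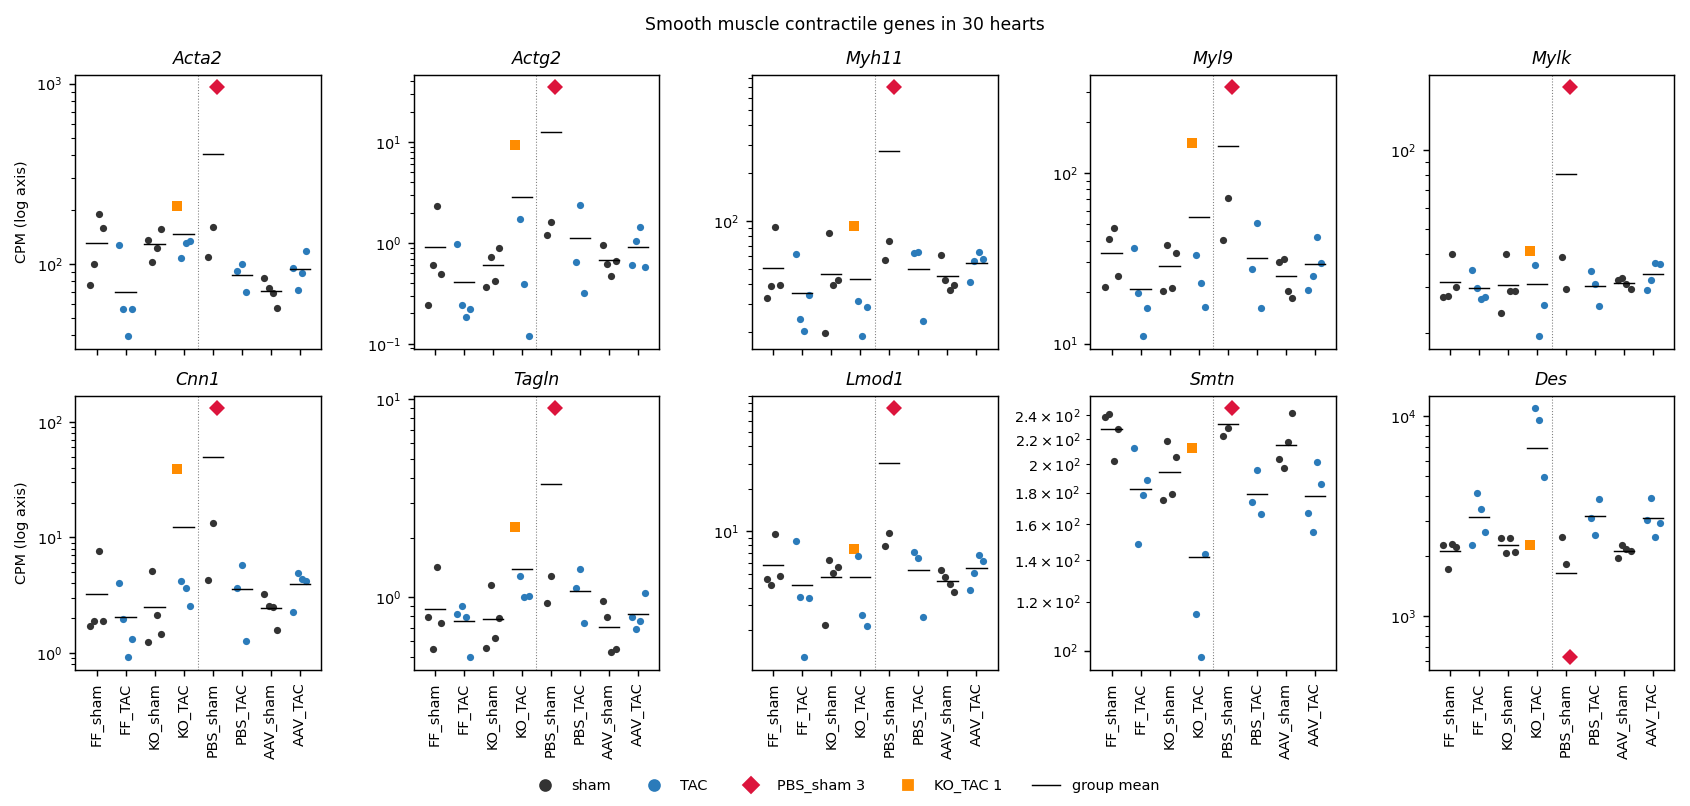
Level of each gene in each of the 30 hearts (CPM on a log axis) by group, with sham hearts in dark grey, TAC hearts in blue, PBS_sham 3 as a red diamond, KO_TAC 1 as an orange square and the group mean as a line; the dotted line separates the cohorts, which were scaled separately. PBS_sham 3 lies above every other AAV9 heart for 9 genes and below them for Des, and KO_TAC 1 lies above every other floxed heart for 7.

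One sham heart stood far above the rest of the AAV9 cohort for 8 of the 10 genes. In PBS_sham 1, 2 and 3, Acta2 stood at 109, 160 and 958 CPM. Smooth muscle myosin heavy chain, Myh11, stood at 57, 74.6 and 699 CPM. PBS_sham 3 was thus far above the other hearts of its group for both the actin and the myosin of smooth muscle. Its Acta2 was 6.01 times, and its Myh11 9.37 times, the highest value among the other 13 AAV9 libraries.

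The same heart was highest for the myosin regulators. Myl9 stood at 40.6, 71.1 and 319 CPM in PBS_sham 1, 2 and 3, and Mylk at 39.1, 29.4 and 174 CPM. For Mylk, PBS_sham 3 was 4.44 times the next highest AAV9 heart, PBS_sham 1, which was the smallest such ratio among the 8 genes other than Smtn and Des. Actg2, scarce in every other AAV9 heart at 0.318 to 2.36 CPM, stood at 35.2 CPM in PBS_sham 3, 882 counts against 22 and 29 in PBS_sham 1 and 2. At 14.9 times the highest other library, this was the largest ratio.

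The filament-binding genes divided. Cnn1 stood at 4.33, 13.4 and 131 CPM in PBS_sham 1, 2 and 3, and Lmod1 at 7.89, 9.75 and 73.9 CPM. Tagln, with the counting limit above, stood at 0.93, 1.27 and 9.02 CPM. For these 3 genes PBS_sham 3 lay 6.52 to 9.82 times above the highest of the other 13 libraries. Smtn did not follow: at 222, 229 and 247 CPM it was highest in PBS_sham 3 by 1.02 times only. Des went the other way, at 2504, 1828 and 625 CPM, and PBS_sham 3 was the lowest AAV9 library for it by a wide margin. The scaling lowers the values of PBS_sham 3 (TMM ratio 0.721), and without scaling it was likewise above all other AAV9 libraries for 9 genes and below them for Des.

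Other genes of the apparatus in that heart also moved apart. Among 27 accessory genes, 17 lay above all other AAV9 libraries and 8 below, beside 31.0% and 44.5% of all genes. Those above included caldesmon (Cald1) at 287 CPM against 72.3 to 96.0, filamin A (Flna) at 1077 against 135 to 227, and the potassium channel subunit Kcnmb1 at 17.6 against 1.51 to 2.65. Those below included tropomyosin 1 (Tpm1) at 2345 against 7080 to 9824 CPM. Of 20 paralogues, 12 lay above all other AAV9 libraries and 6 below. Those above included the non-muscle genes Actb, at 1024 CPM against 473 to 679, and Vim, at 773 against 195 to 462. The heart muscle paralogues were low: cardiac actin (Actc1) stood at 922 CPM against 6508 to 11199, Lmod2 at 121 against 665 to 1297 and Mylk3 at 247 against 555 to 849. Per kilobase, Acta2 amounted to 76.5% of Actc1 in PBS_sham 3 and to 0.459% to 1.81% in the other 13 hearts.

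Of 12 regulators of the contractile genes, 6 lay above and 5 below the other AAV9 libraries, beside 31.0% and 44.5% of all genes. Without scaling, 7 lay above and 4 below. Srf itself stood at 30.7 CPM against 86.8 to 120, and Myocd at 15.1 against 20.7 to 26.6, although Myocd was inside the range without scaling. The muscle LIM proteins Csrp1 and Csrp2 stood at 229 and 113 CPM, above 82.1 and 53.0 as the highest of the others. Klf4, a factor known for repressing contractile genes, stood at 202 CPM against 58.1 to 124.

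Markers of other cell types moved with the contractile genes in PBS_sham 3. The summed level of 9 heart muscle markers was 28558 CPM against 59917 to 78507 in the other 13 libraries, and all 9 lay below. The 7 endothelial markers summed to 1688 CPM against 860 to 1112, and 6 of them lay above. The 6 elastic vessel wall genes summed to 918 CPM against 205 to 692, led by elastin (Eln) at 238 CPM against 30.2 to 87.4. The 9 pericyte markers summed to 1042 CPM, inside the range of 875 to 1369. Of them, 4 lay above all other AAV9 libraries and 2 below, beside 31.0% and 44.5% of all genes. Fibroblast, atrial, haemoglobin, early response, macrophage and myofibroblast sums were also inside the range. So were the adipocyte sum, at 218 CPM against a median of 0.476 in the other 13, and the nerve sum, at 45.3 against 11.8. Only PBS_sham 2 was higher for these, at 432 and 54.0 CPM. Of the 7 macrophage markers, 4 lay below all other AAV9 libraries and 1 above, beside 44.5% and 31.0% of all genes. Without scaling, 1 lay below and 1 above. The 6 skeletal muscle markers summed to 6.82 CPM against 1.40 to 4.38, and 4 lung and airway markers to 0.04 CPM. The part of these cell types in the contractile gene levels was not tested.

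**Figure D2:**
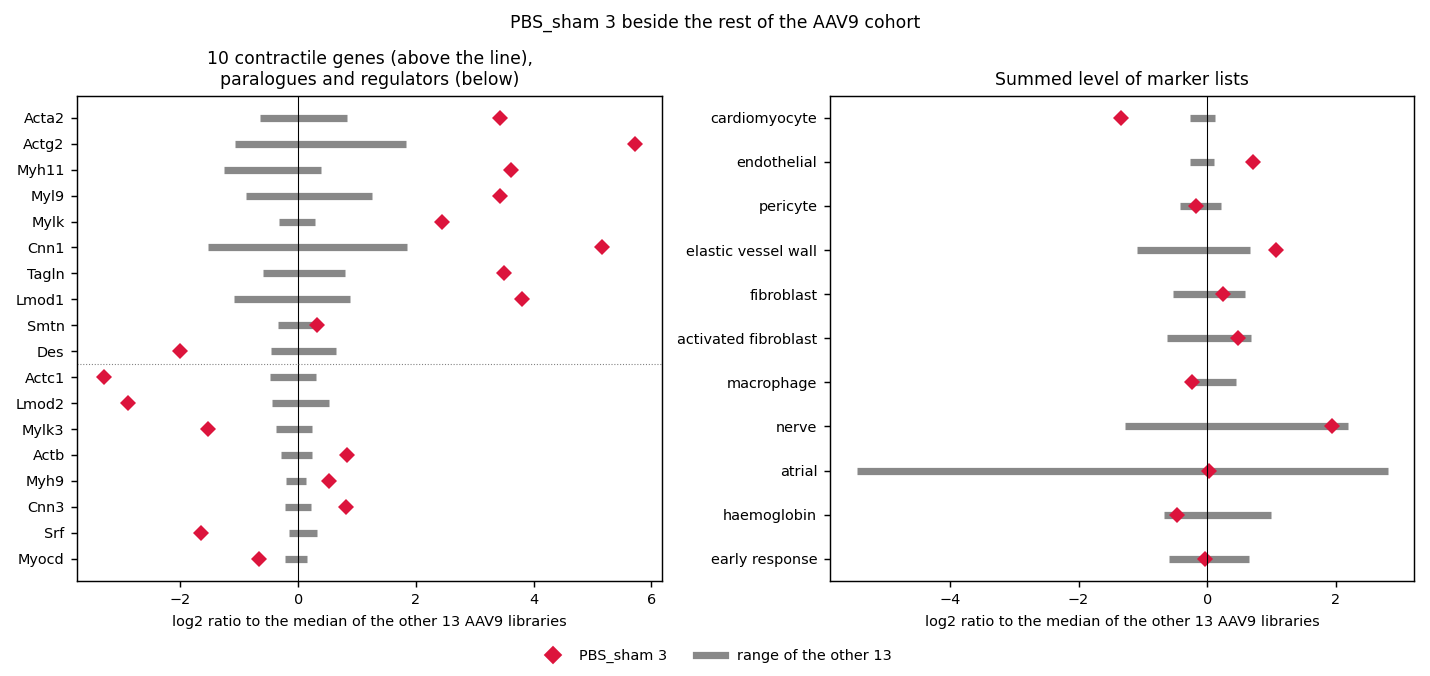
Level in PBS_sham 3 (red diamonds) and the range of the other 13 AAV9 libraries (grey bars), as log2 ratio to the median of those 13, for the 10 genes with paralogues and regulators (left) and for summed marker lists (right). The contractile genes other than Smtn and Des, and the paralogues Actb, Myh9 and Cnn3, lie to the right of their bars. Des, Actc1, Lmod2, Mylk3, Srf and Myocd lie to the left, and the endothelial and elastic wall sums lie to the right.

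Pressure overload with PBS went with lower Acta2, Lmod1 and Smtn levels and higher Des levels than in any PBS sham heart, but edgeR called none of these. In PBS_TAC 1, 2 and 3, Acta2 stood at 91.4, 99.4 and 69.8 CPM, below all 3 PBS_sham hearts. Lmod1 at 7.14, 6.46 and 2.49 CPM and Smtn at 174, 196 and 166 CPM were also below all PBS_sham hearts, and Des at 3099, 2545 and 3861 CPM was above them. The other 6 genes overlapped between the groups. Groups did not overlap for 14.7% of all genes tested, 6.57% lower and 8.11% higher, against 3 of 10 lower and 1 of 10 higher here.

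By edgeR's quasi-likelihood test, 0 of the 10 genes passed an adjusted p of 0.05 in PBS_TAC against PBS_sham, where 0.0318% of all genes were called. All 10 had an unadjusted p under 0.05, as had 18.5% of all genes, and DESeq2 called 3. The log2 fold changes had a median of -2.21 over the 10 genes, against -0.02 over all genes tested, and ran from -3.80 (SE 0.95, adjusted p = 0.14) for Cnn1 to 0.94 (SE 0.37, adjusted p = 0.217) for Des. These sizes rested on PBS_sham 3. Without it, which left 2 hearts in PBS_sham, the median was -0.37 and edgeR again called 0. Acta2 went from -2.23 to -0.63, Myh11 from -2.46 to -0.39 and Cnn1 to -1.31. Without PBS_sham 1 instead, 9 of the 10 were called by edgeR, in a fit that called 11.1% of all genes.

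The vector in sham hearts showed the same dependence on that library. Acta2 stood at 83.4, 73.4, 68.8 and 57 CPM in AAV_sham 1 to 4, and Cnn1 at 3.23, 2.57, 2.51 and 1.58 CPM. Both were below all 3 PBS_sham hearts, as were Actg2, Lmod1 and Myl9, which makes 5 of 10 genes without overlap, all lower, against 5.32% of all genes lower and 10.9% in either direction. In AAV_sham against PBS_sham, edgeR called 0 of the 10 genes, where 0.0127% of all genes were called. Of the 10, 8 had an unadjusted p under 0.05, as had 20.7% of all genes, and DESeq2 called 5.

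The largest differences between AAV_sham and PBS_sham were those of Cnn1 at -4.32 (SE 0.87, adjusted p = 0.116 by edgeR) and Actg2 at -4.21 (SE 1.01, adjusted p = 0.131). The median over the 10 genes was -2.53 on the log2 scale, and -0.03 over all genes. Without PBS_sham 3 the median was -0.78, Cnn1 stood at -1.83, Actg2 at -1.04, Myl9 at -1.16 and Acta2 at -0.93, with the smallest adjusted p among the 10 at 0.163. Acta2 in AAV_sham was thus lower than in PBS_sham 1 and 2 as well, by an amount that did not pass the test. These values rest on those 2 hearts, and PBS_sham 2 stood apart too. It had the highest atrial sum of the AAV9 cohort, at 6115 CPM, and the highest adipocyte and nerve sums. It held more than PBS_sham 1 of each of the 10 genes except Mylk and Des, with Cnn1 at 13.4 against 4.33 CPM. The part of PBS_sham 2 in these values was not tested. Without PBS_sham 1 instead, edgeR called 8 of the 10, in a fit that called 17.4% of all genes.

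**Figure D3:**
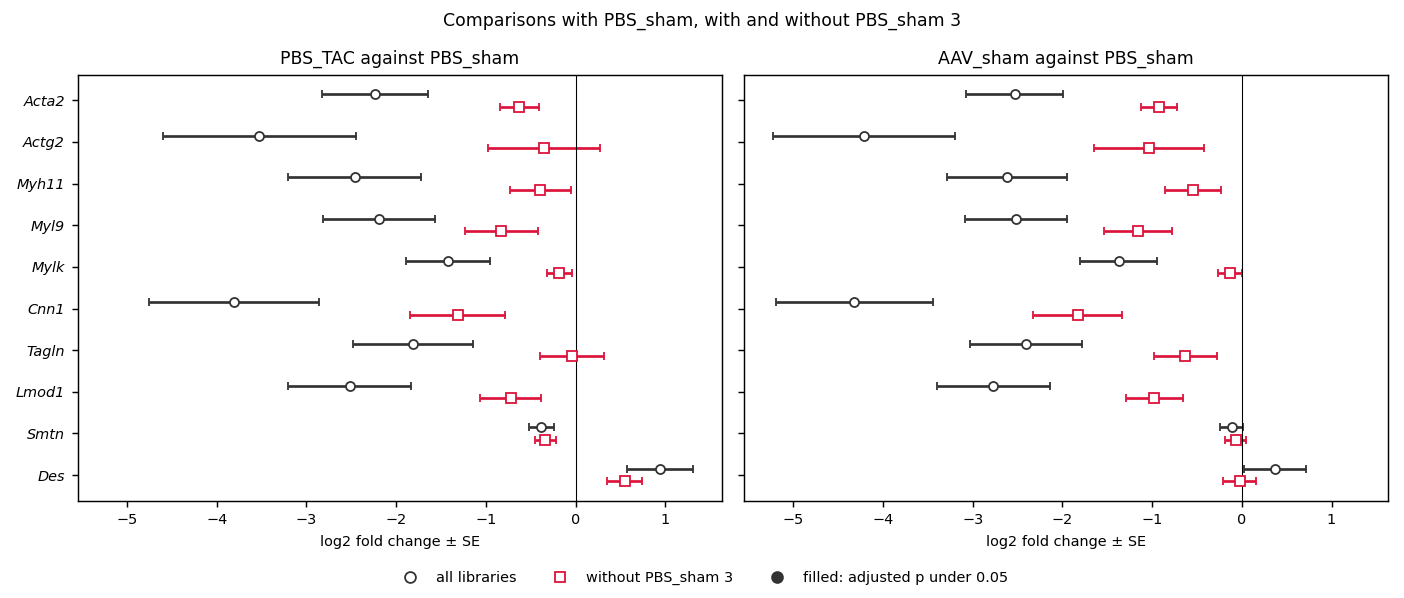
Log2 fold change with its standard error for each gene in PBS_TAC against PBS_sham (left) and AAV_sham against PBS_sham (right), with all libraries (grey circles) and without PBS_sham 3 (red squares); filled symbols would mark an adjusted p under 0.05. No symbol is filled, and the changes of Cnn1, Actg2, Lmod1, Myh11, Acta2 and Myl9 are much closer to 0 without PBS_sham 3.

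Between groups that do not include PBS_sham 3, the AAV9 cohort showed small differences. Their standard errors and p-values still depend on that heart, because all AAV9 groups share the estimate of the spread. In AAV_TAC 1 to 4, Des stood at 3024, 3896, 2499 and 2943 CPM, above all of AAV_sham at 1967, 2282, 2166 and 2119 CPM. It was the only one of the 10 genes without overlap in AAV_TAC against AAV_sham, where 10.7% of all genes did not overlap and 4.9% were higher without overlap. Its log2 fold change was 0.53 (SE 0.32, adjusted p = 0.811 by edgeR). Smtn stood at -0.28 (SE 0.12) and was the 1 gene of the 10 with an unadjusted p under 0.05, against 7.05% of all genes. EdgeR called 0 of the 10, as did DESeq2, where edgeR called 0.00635% of all genes.

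Under TAC the vector left all 10 genes within 0.37 of PBS_TAC on the log2 scale. EdgeR and DESeq2 called 0 of them in AAV_TAC against PBS_TAC, 0 had an unadjusted p under 0.05 against 3.19% of all genes, and edgeR called 0.0381% of all genes. All 10 genes overlapped between these groups, where 8.47% of all genes did not. The standard errors ran from 0.13 for Smtn to 1.08 for Actg2. They come from an estimate of the spread shared by all AAV9 groups, to which PBS_sham 3 contributes. The interaction of vector and TAC had 0 calls by either tool among the 10 genes (0.00635% of all genes by edgeR), with 8 under an unadjusted p of 0.05 against 6.95% of all genes. Its value for Acta2 was 2.63 (SE 0.77) with PBS_sham 3 and 1.03 (SE 0.28, adjusted p = 0.423 by edgeR) without.

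In floxed control hearts, mean levels of most contractile genes were lower under TAC, by amounts that did not pass the test. Acta2 stood at 75.8, 99.8, 190 and 158 CPM in FF_sham 1 to 4 and at 126, 56.2, 39.6 and 55.8 CPM in FF_TAC 1 to 4. FF_TAC 1 was the one heart that overlapped the sham range, and groups did not overlap for 6.03% of all genes and for none of the 10. The log2 fold change of Acta2 was -0.91 (SE 0.34, adjusted p = 0.381 by edgeR), and it was the 1 gene of the 10 with an unadjusted p under 0.05.

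The signs in FF_TAC were alike for most of the 10 genes. Of the 10, 9 had negative values, with a median of -0.50 against -0.01 over all genes, and Des alone was positive at 0.55 (SE 0.34). EdgeR called 0 of the 10 and 0% of the 15596 genes tested, 11.1% of all genes had an unadjusted p under 0.05, and DESeq2 called 0 of the 10. FF_TAC 1 held the highest value of its group for 8 genes (Acta2, Actg2, Myh11, Myl9, Mylk, Cnn1, Lmod1 and Smtn) and the lowest for Des. Among sham hearts, FF_sham 3 was high for Myh11 at 92.1 CPM against 32.6 to 39.6 in the rest of FF_sham. It was also high for Cnn1, at 7.57 CPM against 1.71 to 1.91, and for Lmod1 and Actg2. The FF_sham means of these genes, and so their negative values, rest in part on that heart. Without FF_sham 3, edgeR again called 0 of the 10 and 0% of all genes.

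Knockout without overload left the contractile genes close to the floxed controls. Acta2 stood at 136, 102, 122 and 155 CPM in KO_sham 1 to 4, within the FF_sham range. Des stood at 2475, 2078, 2477 and 2093 CPM, against 2262, 1731, 2310 and 2222 CPM in FF_sham, and the groups overlapped for all 10 genes, where 6.77% of all genes did not overlap. EdgeR and DESeq2 called 0 of the 10, 0 had an unadjusted p under 0.05 against 5.22% of all genes, and 0% of all genes were called. The values ran from -0.62 (SE 1.03) for Actg2 to 0.10 (SE 0.34) for Des.

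Des rose in overloaded knockout hearts. In KO_TAC 1 to 4 it stood at 2269, 10966, 9556 and 4958 CPM. KO_TAC 2, 3 and 4 were above every other floxed heart, the highest of which was FF_TAC 2 at 4156 CPM, and KO_TAC 1 lay within the range of KO_sham. Against KO_sham the log2 fold change was 1.60 (SE 0.35, adjusted p = 0.00639 by edgeR), and against FF_TAC it was 1.15 (SE 0.35, adjusted p = 0.0377). Without KO_TAC 1 the values were 1.89 (adjusted p = 0.000217) and 1.43 (adjusted p = 0.00154). Without KO_TAC 2 they were 1.29 (adjusted p = 0.02) and 0.84 (adjusted p = 0.12).

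Des was the 1 gene of the 10 that edgeR called in each of these comparisons. DESeq2 called 1 against KO_sham and 3 against FF_TAC, and its share of all genes is not given here. EdgeR called 25.8% of all genes in KO_TAC against KO_sham and 14.3% in KO_TAC against FF_TAC. Called higher were 14.3% and 7.53%, so 1 of 10 by edgeR is near or below the background. An unadjusted p under 0.05 was reached by 5 and 6 of the 10, against 40.6% and 31.1% of all genes. The call against KO_sham held whichever single heart was left out. The call against FF_TAC was lost without FF_TAC 1 (adjusted p = 0.108 by edgeR), FF_TAC 3 (0.0583), FF_TAC 4 (0.112), KO_TAC 2 (0.12) or KO_TAC 3 (0.12), and in a fit of those 2 groups alone (adjusted p = 0.176).

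Des also depended on the haemoglobin split. With a term for libraries low in haemoglobin transcripts, which include all of KO_TAC, the Des values were 1.37 (adjusted p = 0.141 by edgeR) and 1.03 (adjusted p = 0.13), no longer called. Among haemoglobin-low hearts alone, Des in KO_TAC against FF_TAC was 0.85 (SE 0.59, adjusted p = 0.677 by edgeR), with FF_TAC 2 and 3 as the only controls. The interaction of knockout and TAC for Des was 1.05 (SE 0.48, adjusted p = 0.37), and 1.33 (adjusted p = 0.056) without KO_TAC 1. EdgeR and DESeq2 called 0 of the 10 genes in that interaction, 4 had an unadjusted p under 0.05 against 13.1% of all genes, and edgeR called 0.0449% of all genes.

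The high means of Cnn1, Myl9 and Actg2 in KO_TAC rested on 1 heart. Cnn1 stood at 39.0, 4.21, 3.67 and 2.56 CPM in KO_TAC 1 to 4. Myl9 stood at 149, 33.0, 22.7 and 16.4 CPM, and Actg2 at 9.26, 1.73, 0.389 and 0.119 CPM, the last being 2 counts. KO_TAC 1 was above all other floxed hearts for each of these, and KO_TAC 2 to 4 overlapped the sham groups.

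Against KO_sham, Cnn1 was at 2.33 (SE 0.85, adjusted p = 0.0546 by edgeR) and Actg2 at 2.27 (SE 1.0, adjusted p = 0.0984). Without KO_TAC 1 they were at 0.49 and 0.24, and Myl9 went from 0.97 to -0.25. Against FF_TAC the same genes were at 2.57 (SE 0.86, adjusted p = 0.0581) and 2.80 (SE 1.04, adjusted p = 0.0819), and at 0.72 and 0.76 without that heart. Acta2 at 210, 108, 131 and 133 CPM in KO_TAC was 1.07 above FF_TAC (SE 0.34, adjusted p = 0.0509), and 0.82 above it (adjusted p = 0.0967) without KO_TAC 1. With the haemoglobin term the Acta2 value was 1.49 (adjusted p = 0.0247). Tagln was the 1 gene of the 10 whose libraries did not overlap between KO_TAC and FF_TAC (13.5% of all genes, 6.76% higher), with 17 to 46 counts in KO_TAC and 9 to 15 in FF_TAC. In KO_TAC against KO_sham none of the 10 genes was free of overlap, against 23.1% of all genes.

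Smtn behaved in the opposite way to Des in KO_TAC. It stood at 212, 115, 97.5 and 143 CPM in KO_TAC 1 to 4 and at 175, 218, 179 and 206 CPM in KO_sham. KO_TAC 2 to 4 were below every other floxed heart, the lowest of which was FF_TAC 2 at 149 CPM, and KO_TAC 1 was not. With all libraries Smtn was at -0.46 against KO_sham (SE 0.19, adjusted p = 0.0877 by edgeR). Without KO_TAC 1 it was called, at -0.72 (SE 0.15, adjusted p = 0.00234) against KO_sham and at -0.63 (SE 0.15, adjusted p = 0.00828) against FF_TAC. With Des this made 2 of 10 called in fits that called 40.8% and 24.3% of all genes, so the count is at or below the background.

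Transcripts of other tissues were high in KO_TAC 1. The airway secretory gene Scgb1a1 stood at 602 CPM, against 0 to 11.3 CPM in the other 15 floxed hearts, while the lung surfactant genes Sftpc and Sftpb were at 0.10 and 0.30 CPM. All 6 atrial markers lay above the other floxed hearts and summed to 17733 CPM against at most 8723. The atrial myosin light chain Myl7 stood at 3147 CPM and Sln at 1099 CPM, against at most 0.75 and 0.18 CPM in KO_TAC 2 to 4 and at most 1106 and 298 CPM in the whole cohort. Of the 6 elastic vessel wall genes, 2 lay above, elastin (Eln) among them at 207 CPM against at most 74.1, and their sum of 906 CPM was inside the range of 245 to 1443. Of the 7 fibroblast markers, 5 lay above, with a sum of 3989 CPM against at most 3277. The 12 early response genes summed to 6362 CPM against at most 5466. The 4 nerve markers summed to 49.9 CPM against at most 23.6, and the 9 heart muscle markers to 53752 CPM against at least 59142. The part of these tissues in the contractile gene levels of KO_TAC 1 was not tested.

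**Figure D4:**
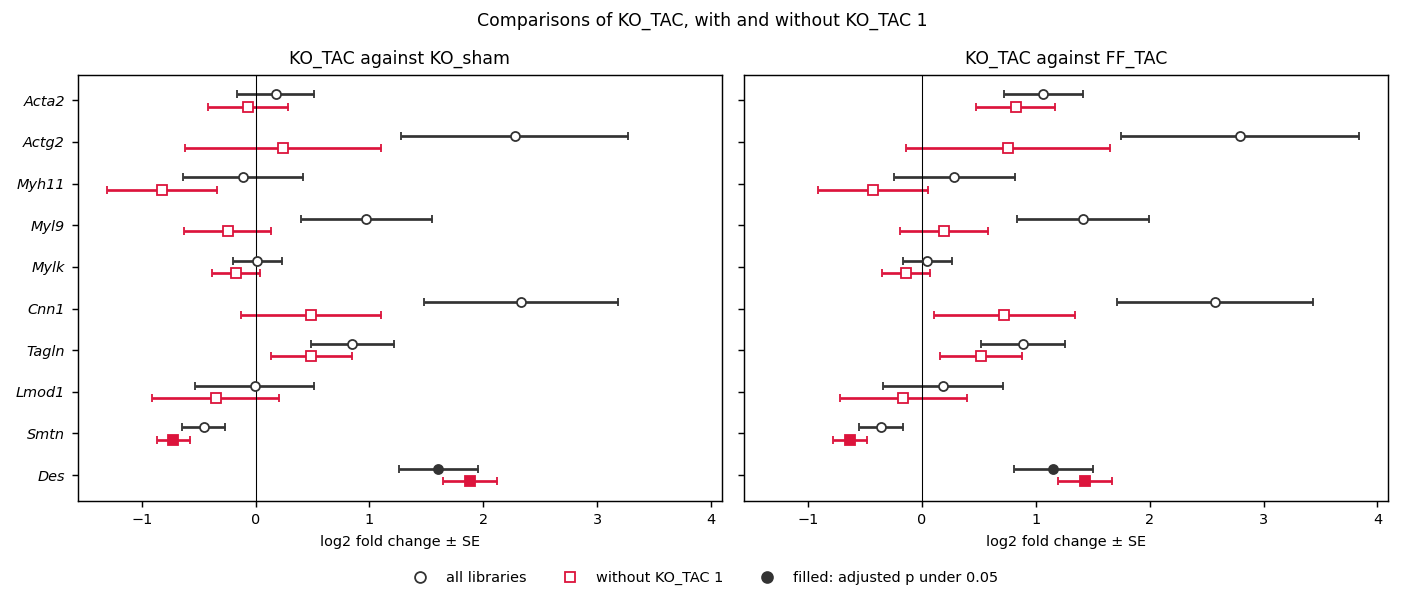
Log2 fold change with its standard error for each gene in KO_TAC against KO_sham (left) and against FF_TAC (right), with all libraries (grey circles) and without KO_TAC 1 (red squares); filled symbols mark an adjusted p under 0.05. Des is filled in all 4 fits and Smtn only without KO_TAC 1, while Cnn1, Actg2 and Myl9 move toward 0.

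Over the 4 pairs of TAC and sham groups, which share no hearts, Des was higher and Smtn lower under TAC in each. The log2 fold changes of Des were 0.55 in FF, 1.60 in KO, 0.94 in PBS and 0.53 in AAV hearts, and those of Smtn were -0.32, -0.46, -0.38 and -0.28. The mean of the 4 differences, a comparison added after the results had been seen, was fitted over all 30 libraries. By edgeR it was 0.91 for Des (SE 0.18, adjusted p = 0.00165) and -0.37 for Smtn (SE 0.08, adjusted p = 0.00491). Acta2 was called too, at -0.66 (SE 0.23, adjusted p = 0.0467), which makes 3 of 10 where 20.2% of all genes were called, 10.3% higher and 9.89% lower.

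Calls for the averaged TAC difference depended on the hearts and terms included. Without PBS_sham 3, Des was at 0.81 (adjusted p = 0.00142 by edgeR) and Smtn at -0.35 (adjusted p = 0.00589), both called, while Acta2 was at -0.25 (adjusted p = 0.259). Acta2 was higher in 2 arms and lower in the other 2. Leaving out hearts 1 at a time, Acta2 lost its call in 24 of 30 cases. Without KO_TAC 1, 5 of the 10 were called, Myh11 at -0.88 (adjusted p = 0.0272) and Myl9 at -0.72 (adjusted p = 0.0295) in addition, where 32.4% of all genes were called. Without PBS_sham 1, 5 were also called, Myh11 and Lmod1 in addition, where 26.2% of all genes were called. Des and Smtn were called whichever single heart was left out. With the haemoglobin term they were at 0.80 (adjusted p = 0.0551) and -0.35 (adjusted p = 0.0588), and over the FF, PBS and AAV arms only at 0.68 (adjusted p = 0.077) and -0.33 (adjusted p = 0.0673), not called.

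Within groups, Des ran against the other 9 genes. The 10 genes form 45 pairs, and Pearson's r was computed on each library's deviation from its group mean in log2 CPM, as a description with no p-value because the pattern was noticed in these data. In the floxed cohort (16 libraries) all 9 pairs with Des were negative, from -0.936 to -0.289, and all 36 others were positive, from 0.325 to 0.934. These libraries include KO_TAC 1, the highest of the cohort for 7 of the 10 genes and the lowest of KO_TAC for Des. Apart from Des with Smtn, the floxed pairs were not computed without it, so its part in their signs was not tested. In the AAV9 cohort without PBS_sham 3 (13 libraries) the 9 pairs with Des ran from -0.767 to -0.156 and the 36 others from 0.124 to 0.954. The libraries of a cohort share their scaling.

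Des and Smtn gave the most negative pair of the floxed cohort. Their r was -0.936 (Spearman's rho -0.912, 16 libraries), and -0.924 without KO_TAC 1 and KO_TAC 2, the libraries farthest from the median of Des. Without KO_TAC 1 it was -0.84 over 15 libraries, and -0.72 when the 2 farthest of those were also left out. With all 14 AAV9 libraries it was -0.532 (rho -0.569), and -0.691 without the 2 farthest. In the AAV9 cohort without PBS_sham 3 it was -0.713 (rho -0.676, 13 libraries), and -0.558 without the 2 farthest libraries.

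**Figure D5:**
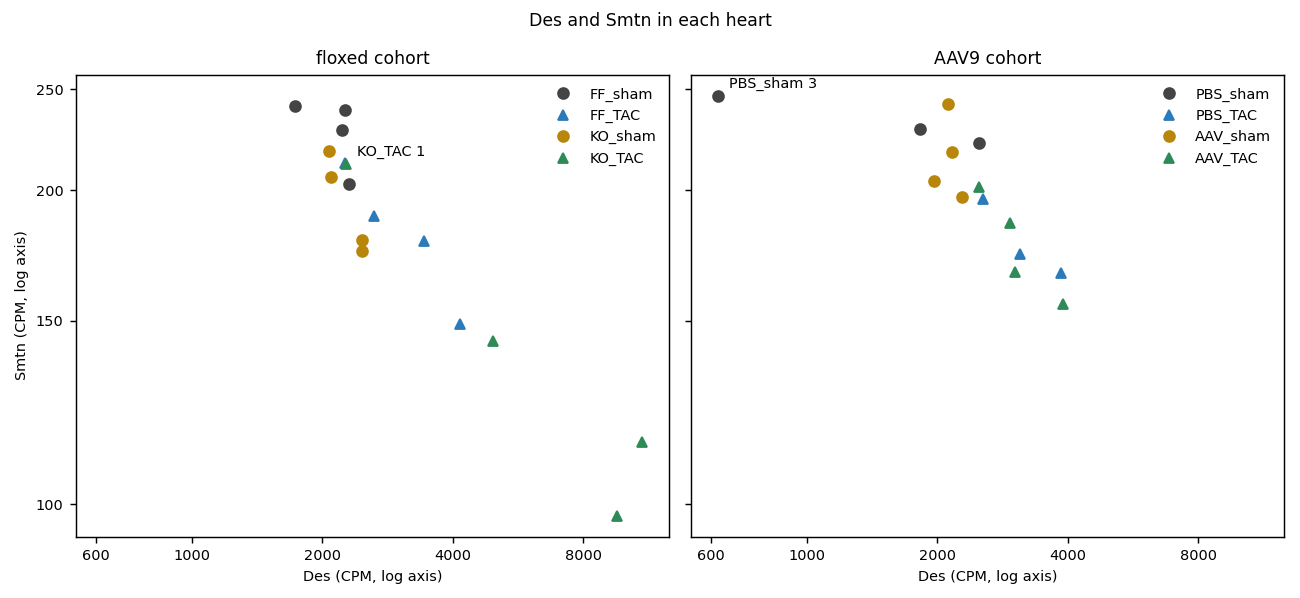
Level of Smtn against Des in each heart (CPM on log axes) of the floxed cohort (left) and the AAV9 cohort (right), with circles for sham and triangles for TAC; FF_TAC 1 is almost hidden under KO_TAC 1. Hearts with more Des have less Smtn, from KO_TAC 2 and 3 at 10966 and 9556 CPM of Des to PBS_sham 3 at 625 CPM.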

How the data were processed

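RNA from 30 mouse hearts was sequenced as strand-specific, poly(A)-selected libraries, per the labels' protocols. The deposited table holds raw counts per gene, made by the authors with HISAT2 2.1.0 and featureCounts (Subread 1.5.1) on GRCm38, per the submitters' processing notes. The strand and multi-mapping settings and the annotation release are not given in the sources used here. Symbols, exons and coordinates came from GENCODE M21 (GRCm38), which gave a symbol to 55227 of 55487 identifiers, and the rest held 0.00336% of counts. Total counts per library ran from 14839758 to 22070373, and intervals of counting error are not given because the spread between hearts is larger. KO_TAC titles carry the words TAC and Sham together, so genotype and treatment, as labelled, gave that group.

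The floxed and AAV9 cohorts were fitted separately, with a coefficient for every group, using the quasi-likelihood test of edgeR 4.0.16 (R 4.3.3), with TMM scaling and filterByExpr. P-values were adjusted by Benjamini-Hochberg over all 15596 (floxed) or 15745 (AAV9) genes tested, and genes were called at an adjusted p under 0.05. The standard error is the log2 fold change over the root of its F value. The fit was tested on simulated counts. The 10 comparisons comprised 4 between groups and 1 interaction in each cohort. Alternatives were DESeq2 1.42.0, RLE size factors, no filter, a mean of at least 5 CPM, all 30 libraries in 1 fit, only the groups compared, the replicate number as a block, a term for libraries under 100 CPM of haemoglobin transcripts, those libraries alone or left out, and leaving out each library. The averaged TAC difference was added after seeing the data.

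All 10 genes are named in every comparison. Other lists contribute up to 3 called genes per direction, those with the largest change at 5 CPM or more on average, and genes named beside PBS_sham 3 and KO_TAC 1 were picked after their values were seen. The genes and all lists were chosen with earlier results of these data known. No libraries were duplicates: the chi-square per degree of freedom was at least 6.29 over 42 pairs within groups.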

Additional observations from a re-analysis of the deposited data

Results flagged for a closer look

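Of 60 sets of 4 libraries (10 genes in 6 groups), 8 had 1 library far from the other 3 in CPM. The limit used flags about 1 in 20 sets of independent, normally distributed values. These CPM were not logged and the genes vary together within groups, so 8 of 60 cannot be set against that rate. FF_sham 3 was the high library for 4 genes: Myh11 at 92.1 against 32.6 to 39.6, Cnn1 at 7.57 against 1.71 to 1.91, Lmod1 at 9.56 against 4.20 to 4.81, and Actg2 at 2.33 against 0.244 to 0.600. KO_TAC 1 was the high library for Cnn1 at 39.0 against 2.56 to 4.21 and for Myl9 at 149 against 16.4 to 33.0. FF_TAC 1 was high for Actg2 at 0.987 against 0.184 to 0.241. FF_sham 2 was low for Des at 1730 against 2220 to 2310. Groups of 3, among them PBS_sham, were not tested in this way. The causes were not tested.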

How the results depend on the processing

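Counts below are of the 10 genes called. In PBS_TAC against PBS_sham the count of 0 became 3 by DESeq2 and 4 without the filter, and ran from 0 to 9 when single libraries were left out. In AAV_sham against PBS_sham it became 5 by DESeq2, 7 without the filter and 7 with all 30 libraries in 1 fit, and ran from 0 to 8. Over all genes, DESeq2 called 363 and 329 in these comparisons against 5 and 2 by edgeR. In KO_TAC against FF_TAC the count of 1 became 3 by DESeq2, 2 with the replicate block, 0 with only the groups compared and 0 among haemoglobin-low libraries, and ran from 0 to 3. In KO_TAC against KO_sham it became 0 with the haemoglobin term and 3 with all 30 libraries, and ran from 1 to 3. For the averaged TAC difference the count of 3 became 0 over the FF, PBS and AAV arms and 0 with the haemoglobin term, and ran from 2 to 5. The highest leave-one-out counts came where 11.1%, 17.4%, 15.8% and 24.5% of all genes were called, in that order. For the averaged difference the share was 32.4% or 26.2%. For the other alternatives, apart from DESeq2 in the PBS_sham comparisons, the share of all genes called is not given here. Their counts are not set against a background, so no rise among them is read as particular to the 10 genes. The other 6 comparisons had 0 under every alternative run. No called gene changed sign. The cause of these shifts was not tested, beyond the smaller number of libraries in the reduced fits. Same-numbered libraries of different groups deviated together in some pairs and apart in others (r from -0.435 to 0.471 floxed, from -0.585 to 0.483 AAV9), so the numbers were not taken as a pairing, and the replicate block moved no other count by over 1.5 times. Depth limits Tagln and Actg2, at 9 and 2 counts in their lowest libraries.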

Other observations

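Markers of several cell types differed in KO_TAC against KO_sham, beside the contractile genes. All 4 KO_TAC libraries were low in haemoglobin transcripts, but in KO_sham only KO_sham 2 was. No value given here for these markers comes from a fit with the haemoglobin term. Of 7 endothelial markers 5 were lower, with Kdr at -1.30 (SE 0.24), and of 8 myofibroblast markers 3 were higher, with Postn at 2.87 (SE 0.45). Of 12 early response genes 1 was higher, and their sums were 2289 to 6362 CPM in KO_TAC and 283 to 4874 CPM in KO_sham. Of 6 elastic vessel wall genes, 5 were higher in KO_TAC than in KO_sham by edgeR, where 14.3% of all genes were called higher. They included the microfibril genes Mfap5 at 2.64 (SE 0.36) and Mfap4 at 2.30 (SE 0.34). Of 9 pericyte markers, 3 were lower and 0 higher, where 11.5% of all genes were called lower: Abcc9 at -1.39 (SE 0.22), Kcnj8 at -1.02 (SE 0.22) and Notch3 at -0.89 (SE 0.26). Of 26 tested accessory genes of smooth muscle contraction, 9 were higher and 1 lower, led by Pdlim7 at 1.37 (SE 0.27), and the myosin phosphatase subunit Ppp1r12b was the 1 that fell, at -0.44 (SE 0.12). Of 19 tested paralogues, 6 were higher and 0 lower, with skeletal actin (Acta1) at 3.45 (SE 0.76) and vimentin (Vim) at 1.25 (SE 0.28). Of 12 regulators, 4 were higher and 0 lower, with Nfatc1 at 1.56 (SE 0.36) and Csrp2 at 1.16 (SE 0.33). Libraries of the 2 groups did not overlap for any gene named here except Csrp2, so KO_TAC 1 lay on the same side as the other 3. Their part in the contractile gene levels was not tested.

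The genes whose within-group pattern was most like the mean of the 10, among 10381 genes at 5 CPM or more in the floxed cohort, were Ncoa1 (r = 0.905 over 16 libraries) and Hnrnpa3 (r = 0.878). In the AAV9 cohort Gabpb1 led with all 14 libraries (r = 0.984), and r was 0.895 over the 13 without PBS_sham 3. With all 14 libraries 488 genes had an r over 0.9, and 4 had one without PBS_sham 3. These are descriptions over libraries that share their scaling.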
